A study of Mus musculus with 76 samples.

Results

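Of 62 single interneurons analysed, 11 carried the transcript of Nkx2-1 at 10 CPM or more and 51 carried less. CPM is the count of a gene scaled to a common total count per cell. The 11 cells are called Nkx2-1 cells here and the 51 the cells below the limit. The cells were chosen by their measured Nkx2-1 count alone, so the level of Nkx2-1 describes the cells and is left out of every comparison. The series labels 76 cells in all. The other cells are 9 that the authors' quality filter left out and 5 kept cells that carry a contamination mark.

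Nkx2-1 is a homeodomain transcription factor that patterns the medial ganglionic eminence (MGE), the embryonic structure in which parvalbumin and somatostatin interneurons are born. It switches on Lhx6, a LIM-homeodomain factor that the interneurons keep through migration and maturation. MGE interneurons bound for the cortex and hippocampus shut Nkx2-1 down as they migrate, whereas those of the striatum keep it. Outside the forebrain the same factor drives thyroid and lung genes.

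All cells were red neurons of the dorsal CA1 pyramidal layer of the hippocampus, taken at postnatal day 4 with a patch pipette from acute slices (Patch-seq). Every mouse carried Nkx2.1-Cre and the Ai14 reporter, in which Cre removes a stop before tdTomato. The red label therefore marks a past or present activity of the Nkx2.1-Cre driver, not present Nkx2-1 RNA. The pups had either wild-type gephyrin (GPHN WT, called WT) or gephyrin with the change S268/270A (called Mut), and both sexes were sampled. The WT cells used were 9 female and 19 male, and the Mut cells 19 female and 15 male. The cells were also recorded electrically, the pyramidal layer was picked for putative basket cells, and no animal, litter or slice is named. A cell's number is its place among the labels of its own group.

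The Nkx2-1 level separated most cells widely. Among the 62 cells 21 had no Nkx2-1 count, 26 had a level above 0 and below 1 CPM, and 4 lay from 1 to below 10 CPM. In descending order the 11 Nkx2-1 cells were WT male 5 at 122.3 CPM, Mut female 11 at 108.8, Mut male 10 at 103.4, WT female 2 at 90.0, Mut female 5 at 76.8, WT female 5 at 39.0, WT male 17 at 35.4, Mut male 14 at 30.1, WT male 19 at 18.1, WT female 1 at 14.3 and WT male 7 at 13.7 CPM. The cells just outside the limit were Mut male 19 at 9.62, Mut male 4 at 9.58, Mut male 6 at 7.94 and Mut female 14 at 3.47 CPM. The highest cells thus stood about an order of magnitude above the limit, while 3 Mut male cells lay close under it. The Nkx2-1 gene lies on the minus strand at chr12:56531958-56536908 (GRCm38, GENCODE M21) and is overlapped by Gm26973 on the opposite strand. Nextera XT libraries carry no strand mark, so reads of the pair cannot be told apart.

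**Figure D1:**
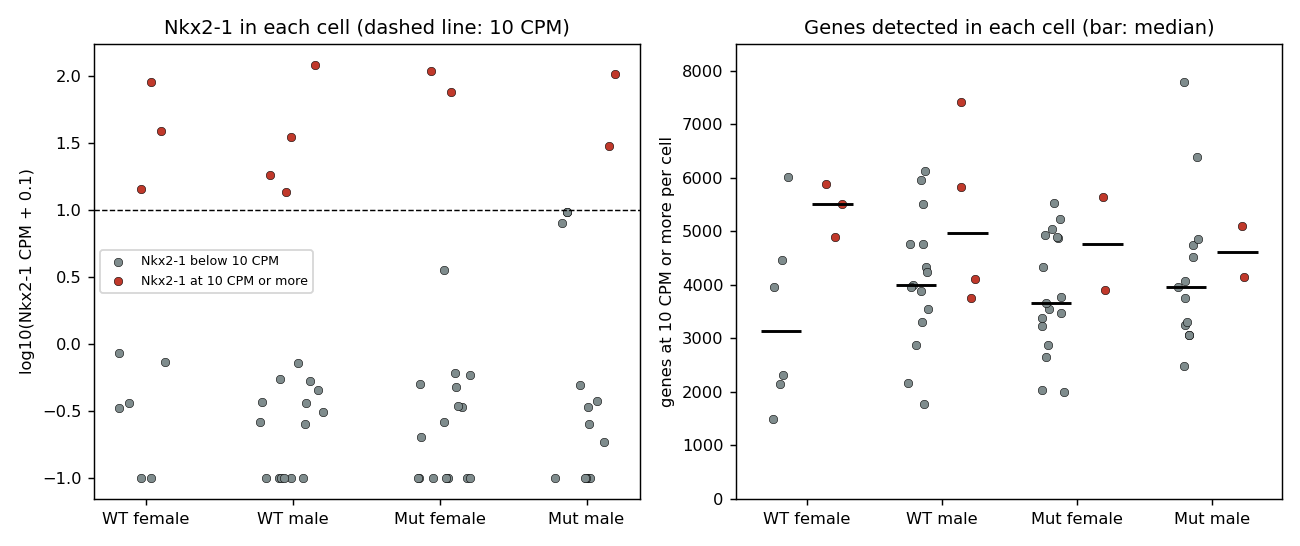
Left, the Nkx2-1 level of each of the 62 cells as log10(CPM + 0.1) by labelled group, with a dashed line at 10 CPM. Right, the number of genes at 10 CPM or more in each cell, with bars at the medians. Red points are the 11 Nkx2-1 cells, and in each group their median gene number lies above that of the cells below the limit.

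Nkx2-1 cells were found in every labelled group. They were 3 of 9 WT female cells (33.3%, exact Clopper-Pearson 95% interval 7.49 to 70.1%) and 4 of 19 WT male cells (21.1%, 6.05 to 45.6%). Among mutant cells they were 2 of 19 female (10.5%, 1.30 to 33.1%) and 2 of 15 male cells (13.3%, 1.66 to 40.5%). Over both sexes the share was 25% of WT cells (10.7 to 44.9%) and 11.8% of Mut cells (3.30 to 27.5%), and these intervals overlap. By sex it was 17.9% of 28 female and 17.6% of 34 male cells. The intervals cover counting error only, and since cells of 1 animal are not independent no test was made. With a limit of 5 CPM the Mut male share was 33.3%, so the order of the groups depends on the limit. None of the 5 contaminated cells reached 10 CPM (exact interval 0 to 52.2%).

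The Nkx2-1 cells detected more genes than the rest. Their total counts ranged from 4617529 to 10359434 (median 7152614), against 2946456 to 12070780 (median 6233416) in the cells below the limit. The number of genes at 10 CPM or more was 3748 to 7422 (median 5103) in Nkx2-1 cells and 1499 to 7795 (median 3951) in the others. With every cell thinned to 2946352 counts, the median number of genes with a count was 10426 against 9825. The share of cells carrying a gene at 10 CPM or more was accordingly higher in Nkx2-1 cells for 8850 of 13024 genes (68.0%). For that reason many genes below are also compared with the 29 of 51 cells below the limit that detected at least 3748 genes, a set chosen after the data were seen. Against these 29 cells the share was higher in Nkx2-1 cells for 50.7% of the genes and the median over cells for 50.5%. The median number of genes at 10 CPM or more was 5103 against 4754 there, so gene detection was closer but not equal.

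Because the labels name no animal, a cell was not treated as a replicate. Counts were summed over the cells of each class within each labelled group, which gave 8 sums, and the classes were compared with edgeR's quasi-likelihood test with the labelled group as a block. The 4 groups differ in sex or genotype and so hold different animals. With p adjusted after Benjamini and Hochberg and a threshold of 0.05, no gene of 13024 passed, higher (0.0%) or lower (0.0%), and the lowest adjusted p was 0.999. At an unadjusted p under 0.05 edgeR had 86 genes higher (0.66%) and 474 lower (3.64%). DESeq2 on the same sums called 119 genes higher (0.914%) and 930 lower (7.14%). With limma on mean log2(CPM + 1), in which every cell weighs the same, none passed (lowest adjusted p 0.176). There 1066 genes were higher (8.18%) and 130 lower (0.998%) with an unadjusted p below 0.05, and the fold change was above 0 for 70.3% of genes. In the sums the fold change was above 0 for 36.9% of genes and below 0 for 63.1%. The median log2 fold change of all genes was -0.40 in the sums and 0.37 with equal weight. The sums hold 2 to 4 Nkx2-1 cells against 6 to 17 others, and both medians are given where a gene group is described by its median because they differ in sign. The common coefficient of variation between sums was 1.13. In simulated data with that spread none of the 4-fold or 16-fold changes passed, and 93% and 99% had the right sign. At that spread differences of these sizes did not pass the test, and the simulation does not settle genes of smaller spread. The genes below are described by their cells.

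The genes with the smallest p among those higher in every labelled group were led by Plxna4, the receptor subunit that relays semaphorin signals in growing axons. All 11 Nkx2-1 cells carried Plxna4 (5.9% of genes were carried by all 11), at 72.3 to 1219.6 CPM (median 538), and 44 of the 51 others did, at 2.67 to 898 CPM over all 51 (median 170). In the sums Plxna4 stood at 463 against 130 CPM in WT females, 430 against 130 in WT males, 581 against 276 in Mut females and 846 against 318 in Mut males. The log2 fold change was 1.51 ± 0.39 (SE), with an unadjusted edgeR p of 0.00205 and an adjusted p of 0.999. The ranges of the cells overlap, and 6 of the 51 cells below the limit exceeded the Nkx2-1 median. Against the 29 cells of like gene detection the median was 538 against 249 CPM, and all 29 carried the gene. Plxna4 is overlapped by 3 antisense genes, whose reads cannot be told apart.

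Mef2c, a transcription factor of the parvalbumin lineage that acts as these neurons mature, had a similar shape. It was present in all cells of both classes, at 273 to 2936 CPM (median 1700.2) in Nkx2-1 cells and 10.2 to 3448 (median 529) in the others. The log2 fold change was 1.09 ± 0.33 (SE). Against the 29 cells of like gene detection the median was 1700.2 against 846 CPM, and 4 of the 29 exceeded the Nkx2-1 median. The lowest Nkx2-1 cells for Mef2c were WT male 5 at 273 and Mut female 5 at 324 CPM, which are 2 of the 5 cells above 50 CPM of Nkx2-1. With the limit at 50 CPM, which moves 6 Nkx2-1 cells into the other class, the Mef2c fold change was -0.028. The median of all genes was -1.47 in that setting. Without the 5 Nkx2-1 cells that carry Neurod6 the Mef2c fold change was 0.48, and the median of all genes -1.17.

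The other genes that the same rule named were mostly housekeeping and signalling genes. Mrps7, a mitochondrial ribosomal protein, was carried by 10 of 11 Nkx2-1 cells and 17 of 51 others (median 113 against 1.28 CPM), and by 12 of the 29 cells of like gene detection. Ppm1l, a protein phosphatase, was carried by 8 of 11 and 15 of 51 cells (median 167 against 1.47 CPM), and all 15 were among the 29. Wdr60, a subunit of the dynein motor of cilia, was carried by 6 of 11 and 4 of 51 cells. Zfp354a, a zinc finger protein, was carried by 6 of 11 and 5 of 51, with the 4 and the 5 likewise among the 29. WT male 5 alone held 48.7% of the Wdr60 reads of the Nkx2-1 cells. In WT females the Wdr60 median over cells was lower in Nkx2-1 cells, at 0.167 against 0.219 CPM. Rab6a, a GTPase of Golgi transport, had a median of 1105 against 626 CPM, and Ptk2, the focal adhesion kinase, 210.2 against 27.2 CPM. Ivns1abp, Ddost, Prpsap1 and Eif3h, a kelch protein, an N-glycosylation subunit, a nucleotide synthesis regulator and a translation factor, completed the list at log2 fold changes of 1.18 to 1.78. Each of these 12 genes was higher in the sums of all 4 groups, as the rule required, and 4.28% of all genes were. Mrps7 overlaps Gga3 and Mif4gd on the opposite strand, so its reads are uncertain.

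**Figure D2:**
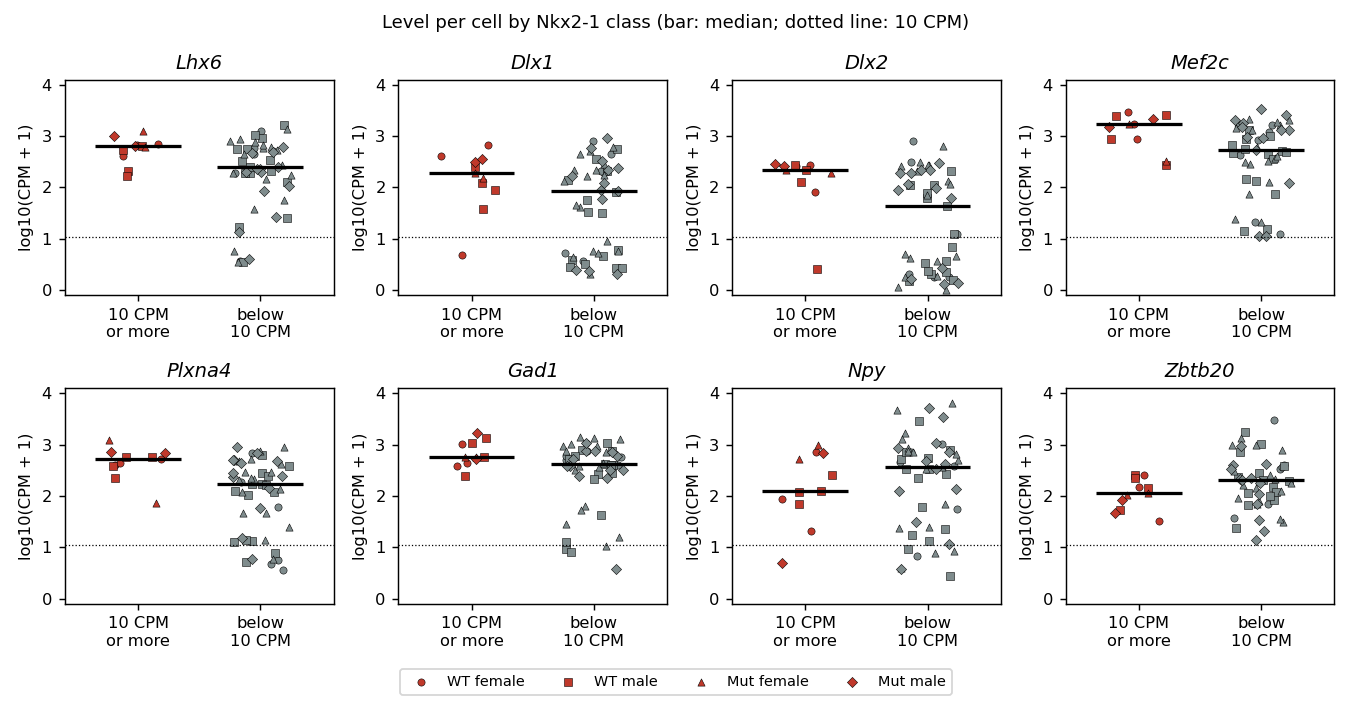
Level of 8 genes in each cell as log10(CPM + 1), for the 11 Nkx2-1 cells (red) and the 51 cells below the limit (grey), with bars at the medians, a dotted line at 10 CPM and the labelled group as the symbol. The Nkx2-1 cells lie in a narrow band for Dlx2, except for 1 cell, and the others reach down to low levels.

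Lhx6, the factor that Nkx2-1 switches on in the embryo, was carried by all 11 Nkx2-1 cells, at 168 to 1284 CPM (median 637). In the other cells it ranged from 2.55 to 1628 CPM (median 253), and 46 of 51 reached 10 CPM. Thus every Nkx2-1 cell bore this marker of MGE interneurons. In the 29 cells of like gene detection 28 carried Lhx6, with a median of 225 CPM, and 3 of them exceeded the Nkx2-1 median. The median over cells was higher in Nkx2-1 cells in all 4 groups, at 679 against 480 CPM in WT females, 371 against 253 in WT males, 946 against 447 in Mut females and 816 against 199.5 in Mut males, as it was for 19.4% of all genes. The sums were higher in both mutant groups and not in the WT groups (598 against 672 CPM in WT females and 376 against 401 in WT males). The log2 fold change was 0.67 ± 0.43 (SE, edgeR unadjusted p = 0.146, adjusted p = 0.999). Gm27953 overlaps Lhx6 on the same strand.

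The core of the DNA site that Nkx2-1 is known to bind is CAAG, in its fuller form CTCAAG. The windows from 250 bases before to 50 after a transcription start in RefSeq (GRCm38.p6) were searched on both strands. CAAG or CTTG is in 90.6% of 32851 windows and CTCAAG or CTTGAG in 15.9%. A start of Lhx6 (minus strand, chr2:36105359-36105658) and a start of Mef2c (plus strand, chr13:83523406-83523705) are printed, 5′ to 3′ on the strand of the gene, as the embryonic target and as a named gene of the parvalbumin lineage. Capitals mark CAAG and CTTG in the first and CTCAAG in the second. The Lhx6 window printed holds no CTCAAG or CTTGAG, and matches to the shorter core alone are left unmarked in the Mef2c window. Each gene has 3 windows, and window 1 is printed for Lhx6 and window 2 for Mef2c.
Lhx6: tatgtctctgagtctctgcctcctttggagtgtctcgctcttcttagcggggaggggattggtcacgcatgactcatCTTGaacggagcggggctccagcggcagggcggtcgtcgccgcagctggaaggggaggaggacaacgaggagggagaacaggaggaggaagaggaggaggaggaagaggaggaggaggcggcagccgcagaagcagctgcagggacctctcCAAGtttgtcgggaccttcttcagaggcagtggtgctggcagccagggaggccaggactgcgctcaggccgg
Mef2c: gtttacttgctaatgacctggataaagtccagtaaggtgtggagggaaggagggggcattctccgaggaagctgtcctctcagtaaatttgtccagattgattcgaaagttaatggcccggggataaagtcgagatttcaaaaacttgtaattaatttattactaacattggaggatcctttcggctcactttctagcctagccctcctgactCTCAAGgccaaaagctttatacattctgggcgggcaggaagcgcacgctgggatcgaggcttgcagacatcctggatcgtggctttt
Of the 12 genes named above 7 had a window in the table, 10 windows in all, and 5 of these windows held CTCAAG or CTTGAG (Ddost, Mef2c, Mrps7 and Wdr60). A match is a description of the letters and no evidence of binding.

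Of 15 tested MGE identity genes, mostly transcription factors, 12 were carried by a higher share of Nkx2-1 cells and 3 (Satb1, Dlx6 and Npas1) by a lower one, where 68.0% of all genes had a higher share. Against the 29 cells of like gene detection 10 of 15 had a higher share, where 50.7% of all genes did. Dlx2, a homeobox factor of GABAergic precursors, was carried by 10 of 11 Nkx2-1 cells, of which 9 lay from 128.8 to 288 CPM and 1 at 82.2, with WT male 5 at 1.57 CPM. In the others 28 of 51 carried it (median 43.5 CPM), and in the 29 cells of like gene detection 19 did (median 76.3, against 219 in Nkx2-1 cells). Its close relative Dlx1 was carried by 10 of 11 and 33 of 51 cells (median 194 against 86.2 CPM), and by 21 of the 29. Sp9 was carried by 10 of 11 and 31 of 51, Maf by 9 and 39, Zeb2 by 11 and 42, and Erbb4, the neuregulin receptor of these cells, by 9 and 28. In the 29 cells 22 carried Sp9, 25 Maf, 27 Zeb2 and 22 Erbb4. Sox6 and Satb1, which act downstream of Lhx6, were carried by 5 and 4 Nkx2-1 cells and by 20 and 19 others. Dlx5 was carried by 5 and 19, Dlx6 by 1 and 7, Npas1 by 1 and 8, and Etv1 by 3 and 9.

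Over this list none passed the test in either direction. The fold change was above 0 for 11 of 15 (36.9% of all genes) and below 0 for 4. The median log2 fold change was 0.40, against -0.40 for all genes, and 0.75 with equal weight per cell, against 0.37. The median over cells exceeded that of the 29 cells of like gene detection for 6 of 15 members, near the 50.5% of all genes. Without cells that carry Neurod6, a gene of pyramidal neurons, the list's median was -0.67, against -0.57 for all genes. With a limit of 50 CPM it was -1.06, against -1.47 for all genes. The sign of the list's median turned in 5 alternative settings.

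The genes of GABA synthesis, loading and uptake define the transmitter of these cells. Gad1, which makes GABA, was carried by 11 of 11 and 47 of 51 cells (median 569 against 425 CPM), at 248 to 1705 CPM in the Nkx2-1 cells and 2.78 to 1434 in all others. The classes overlap, and 20 of the 51 cells below the limit exceeded the Nkx2-1 median for Gad1, as did 9 of the 29 cells of like gene detection. Its log2 fold change was 0.52 ± 0.37 (SE, edgeR unadjusted p = 0.191, adjusted p = 0.999), and it was higher in the sums of 2 of the 4 groups. Gad2, the second such enzyme, was carried by 9 and 39 cells (130.5 against 172 CPM). Abat, which breaks GABA down, was carried by 9 of 11 and 22 of 51 (median 199 against 4.41 CPM) and by 16 of the 29. Slc32a1, the vesicular GABA transporter, was carried by 6 of 11 and 17 of 51, and Slc6a11, the glial GABA transporter, by 2 and 9. Of the 6 genes none passed the test, and 4 had a fold change above 0 (36.9% of all genes). Slc32a1 was higher in the sums of all 4 groups. The median log2 fold change was 0.63, 1.27 with equal weight, and it stayed between 0.28 and 1.27 in the main and alternative settings.

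Receptors and scaffold of the inhibitory synapse were described for the same cells, since gephyrin is the protein changed in the mutant. Gphn, which encodes gephyrin, was carried by 9 of 11 Nkx2-1 cells at up to 249 CPM (median 101.6) and by 26 of 51 others (median 12.8). In the sums the log2 fold change was 0.01, and in the 29 cells of like gene detection 19 carried Gphn, with a median of 49.8 CPM. Gabrg3, a gamma subunit of the GABA-A receptor, was carried by 10 of 11 and 23 of 51 (median 148 against 5.46 CPM) and by 18 of the 29 (76.01 CPM). Gabra5, an alpha subunit, was carried by 7 and 33. Iqsec3, a gephyrin partner, was carried by 8 and 16 cells, Glrb, the glycine receptor beta subunit that binds gephyrin, by 9 and 32, the adhesion molecule Nlgn3 by 8 and 36, and Clptm1 by 8 and 31. No member of the 12 tested GABA-A subunits or the 12 tested scaffold genes passed. Their median log2 fold changes were -0.16 and -0.34 in the sums, and 0.54 and 0.29 with equal weight. Among the cells of like gene detection the median was exceeded for 6 of 12 in each list, close to the 50.5% of all genes.

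Genes of the MGE progenitor state and of hedgehog signalling, which sustains Nkx2-1 in the embryo, were scarce in both classes. The median cell carried 0 of these genes in each class, and a cell at most 3 among Nkx2-1 cells and 4 among the others. Of 13 such genes 4 had no count in any of the 11 cells (among them Gsx1, Gsx2 and Otx2), and 9 stayed under 10 CPM in all of them. Gli1, a readout of hedgehog signalling, reached 0.0965 CPM at most, Hhip 0.874, Hes5 0.839, Nkx6-2 2.03 and Nkx2-2 9.28. In the 29 cells of like gene detection Gsx1, Gsx2, Otx2, Gli1, Hhip, Hes5, Nkx6-2 and Nkx2-2 were likewise carried by none. The hedgehog receptor Ptch1, itself a target of the pathway, was carried by 3 of 11 Nkx2-1 cells (at most 126 CPM) and by 4 of 51 others (at most 54.6). Olig1 was carried by 2 and 12 cells, and Olig2 and Hes1 by 1 Nkx2-1 cell each. Of 12 genes of subpallial and cholinergic neurons, forebrain cells that keep Nkx2-1, 10 stayed under 10 CPM in all 11 cells. Lhx8, Gbx2, Zic2 and Slc18a3 had no count there, Isl1 and Chat reached 0.0489 and 0.169 CPM, Gbx1, Zic1, Slc5a7 and Ngfr at most 1.70, and Zic4 was carried by 1 cell. The Nkx2-1 cells thus bore Lhx6 and lacked the defining genes of cholinergic neurons. This was not particular to them, since a cell carried at most 1 of the 12 genes in either class. Lhx8, Gbx2, Zic2, Chat and Slc18a3 were carried by none of the 29 cells.

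Thyroid and lung genes that Nkx2-1 controls elsewhere were also nearly absent from both classes, in which a cell carried at most 1 of 11. Of 11, 6 had no count in the Nkx2-1 cells, among them Tg and Sftpb. Slc5a5, the iodide transporter, was carried by 2 of 11 (at most 199.6 CPM) and 3 of 51 cells, and Pax8 by 1 and 3. Tshr and Sftpd stayed under 10 CPM in the 11 cells. Of the chromosomal neighbours of Nkx2-1, Nkx2-9, Pax9 and Slc25a21 stayed under 10 CPM in all 62 cells. Mbip was carried by 3 of 11 and 9 of 51, and Brms1l by 3 of 11 and 21 of 51. Ralgapa1 was carried by 8 and 27.

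Markers of hippocampal interneuron subtypes divided the Nkx2-1 cells. Sst, the peptide of somatostatin cells, was carried by 2 of 11 (Mut female 5 at 332 and WT female 5 at 134.9 CPM), by 19 of 51 others and by 13 of the 29. Crhbp, which marks part of the somatostatin lineage, was carried by none of 11 (at most 0.794 CPM) and by 9 of 51 (at most 756). The limit that 0 of 11 cells allows is wide, and 6 of the 29 cells of like gene detection carried Crhbp. Elfn1, a synaptic organiser of somatostatin cells, was instead carried by 6 of 11 (54.5%, exact interval 23.4 to 83.3%) and 4 of 51 (7.84%, 2.18 to 18.9%), and by 2 of the 29. Its sums were higher in each group, from 5.34 against 0.216 CPM in WT females to 74.3 against 2.76 in Mut males, with a log2 fold change of 4.66 ± 1.86 (SE, edgeR unadjusted p = 0.0269, adjusted p = 0.999). Elfn1 was singled out after its values were seen, and Gm43704 overlaps it on the opposite strand. Cort, a peptide related to somatostatin, was carried by 6 and 23 cells, and Pnoc, the nociceptin precursor, by 5 and 23. Over the 13 genes of the somatostatin lineage the median log2 fold change was -0.51 in the sums and 0.28 with equal weight.

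Reln, the extracellular protein of ivy, neurogliaform and some somatostatin cells, was carried by 7 of 11 Nkx2-1 cells and 15 of 51 others, and by 6 of the 29 of like gene detection. Tac1, the substance P precursor of the parvalbumin lineage, was carried by 5 of 11, 25 of 51 and 19 of 29 cells. The overlap of the pair was looked at after the values were seen. Among Nkx2-1 cells 6 carried Reln only, 4 Tac1 only, 1 both (WT male 5) and none neither. Among the others 8 carried Reln only, 18 Tac1 only, 7 both and 18 (35.3%) neither. Kcnip2, a potassium channel partner of basket cells, was carried by 8 of 11 and 20 of 51 (median 84.6 against 1.57 CPM) and by 17 of the 29. Cplx1, a complexin of fast synapses, was carried by 10 and 43, Id2 by 10 and 32 and Lamp5 by 1 and 6. Pvalb was under 10 CPM in all 11 cells and reached it in 1 of the others. Over 9 tested genes of basket and chandelier cells the median log2 fold change was -0.03 (0.54 with equal weight), and over 9 of ivy and neurogliaform cells 0.33 (0.60 with equal weight). Nos1, the enzyme of nitric oxide synthesis in ivy cells, was carried among the Nkx2-1 cells by Mut female 5, at 108.3 CPM, the cell that also carried Sst, Reln, Calb1 and Prox1. Of the others 9 of 51 carried Nos1, at up to 626 CPM, and 8 of these 9 were among the 29.

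**Figure D3:**
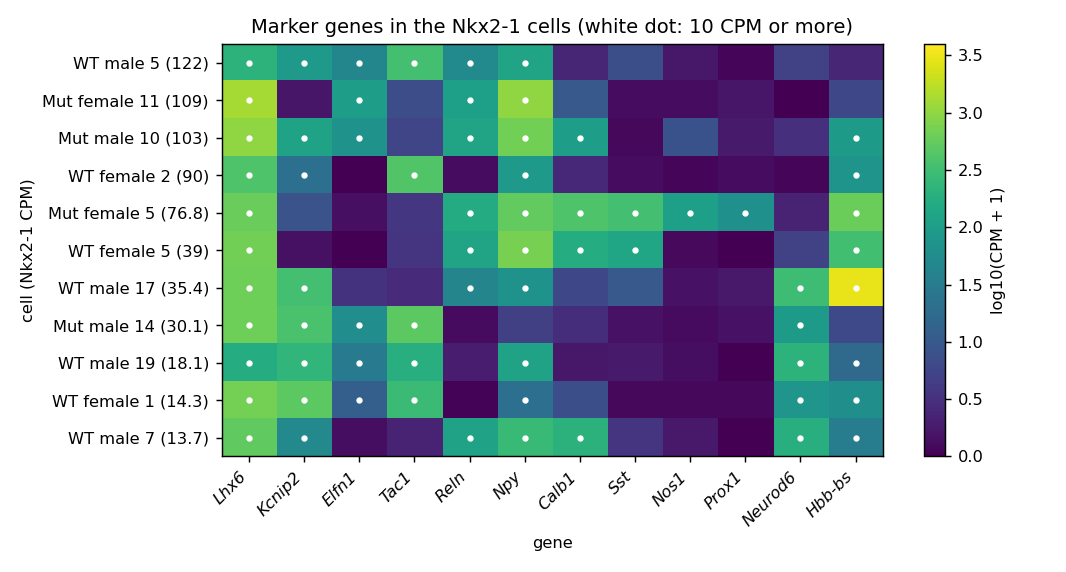
Level of 12 marker genes, as log10(CPM + 1), in each of the 11 Nkx2-1 cells ordered by Nkx2-1 (CPM in parentheses), with white dots at 10 CPM or more. Lhx6 is marked in every cell, Reln and Tac1 together in 1, and Neurod6 in the 5 cells of lowest Nkx2-1.

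Neurod6, a transcription factor of pyramidal neurons, fell unevenly among the Nkx2-1 cells. The 5 cells with 13.7 to 35.4 CPM of Nkx2-1 had 74.8 to 302 CPM of Neurod6, and the 6 with 39.0 to 122.3 CPM of Nkx2-1 had at most 4.12. Overall 5 of 11 Nkx2-1 cells carried it, against 26 of 51 others and 20 of the 29 of like gene detection. Of the 14 pyramidal genes 13 had a fold change below 0 (63.1% of all genes), 5 of them in all 4 groups, against 9.05% of all genes lower in all 4. With equal weight per cell 6 of 14 were above 0 (70.3% of all genes). The share of cells carrying the gene was higher in Nkx2-1 cells for 11 of 14 (68.0% of all genes) and lower for 2. Against the 29 cells this share was higher for 10 (50.7% of all genes) and lower for 3. Nrgn was carried by 10 and 45 cells and Pou3f1 by 4 and 27. The median was -1.80 (-0.23 with equal weight), and the summed level per cell was 102.4 to 1163 CPM (median 555) in Nkx2-1 cells and 59.98 to 4427 (median 689) in the others. The part of pyramidal RNA in the other results was not tested.

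On the lower side the rule named genes that were lower in the sums of every group, and none passed the test. Npy, the neuropeptide of ivy and somatostatin cells, ranged from 3.87 to 998 CPM in Nkx2-1 cells (median 126) and from 1.78 to 6591 in the others (median 360.5). It was carried by 10 of 11 and 44 of 51 cells, and the sums were lower in all groups, from 140.3 against 444 CPM in WT males to 731 against 1317 in Mut females. The median over cells was the other way in Mut females, at 766 against 508 CPM, and Mut female 22 alone held 24.9% of the Npy reads below the limit. In the 29 cells of like gene detection the median was 331 CPM. The log2 fold change was -1.35 ± 0.34 (SE, edgeR unadjusted p = 0.00175, adjusted p = 0.999) and -0.31 with equal weight per cell. Zbtb20, a zinc finger factor of hippocampal pyramidal neurons and glia, was present in all cells, at 32.05 to 262 CPM (median 115) in Nkx2-1 cells and 13.2 to 2969.8 (median 207) in the others. Its fold change was -1.72, and the median over cells was lower in each group, though close in WT males (184.4 against 199.8 CPM). Such medians were seen for 0.852% of all genes, but Zbtb20 was picked for lower sums in every group. Crym, which binds thyroid hormone, had a median of 288 against 454 CPM and a fold change of -1.55, with the lowest cells Mut female 11 at 2.19 and Mut male 10 at 7.14 CPM. Its median over cells too was higher in the Nkx2-1 cells of Mut females, at 136.7 against 57.0 CPM.

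The remaining named genes of this side were Ptn, a growth factor, Tubb5, a beta tubulin, Fabp7, the fatty acid binder of radial glia, Ndfip2, a ubiquitin ligase adaptor, Ythdf1, a reader of methylated RNA, the kinases Snrk and Ulk2, the deacetylase Hdac3 and the amidase Ntan1. Their fold changes ran from -0.78 (Tubb5) to -3.99 (Ythdf1) in the sums. With equal weight they ran from -0.46 (Fabp7) to -2.05 (Ythdf1). Tubb5 was present in all cells of both classes, at a median of 1262 against 1753 CPM. Ythdf1 was carried by 4 of 11 and 28 of 51 cells, and Ntan1 by 5 of 11 and 34 of 51. Of these remaining genes only Tubb5, Ythdf1 and Ntan1 had a lower median over cells in all 4 groups. Ptn was carried by 8 of 11 and 33 of 51 cells, at a median of 26.0 against 24.4 CPM. Fabp7 was carried by 9 of 11 and 36 of 51. Snrk had a higher median in the Nkx2-1 cells of 2 groups, at 160.2 against 4.35 CPM in WT females.

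Receptors of migration and guidance, among them Nrp2, which Nkx2-1 represses in the embryo, showed both directions. Of 22 tested genes 9 had a fold change above 0 (36.9% of all genes) and 13 below (63.1%), and none passed. In all 4 groups 3 were higher (Plxna4, Robo2 and Unc5b) and 7 lower, where 4.28% and 9.05% of all genes were. The median log2 fold change was -0.60 in the sums and 0.19 with equal weight. Robo2, a receptor of slit repellents, was carried by 7 of 11 and 21 of 51 cells. Nrp1 and Nrp2, the neuropilins that bind semaphorins together with plexins, were carried by 7 and 4 Nkx2-1 cells and by 25 and 12 others. Cxcr4, the chemokine receptor of migrating interneurons, was carried by 1 and 6, and the ephrin receptor Epha4 by 7 and 28. Markers of immature neurons had close medians in the classes, with Dcx at a median of 594 against 568.1 CPM, Stmn2 at 1970.3 against 1933 and Tubb3 at 1241 against 1268. The cycling genes Mki67, Cdk1 and Ccnb1 stayed under 10 CPM in the Nkx2-1 cells, Top2a was carried by 1 of them, and Pcna by 5 of 11 and 30 of 51.

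Transcripts of other cell types were present unevenly in the Nkx2-1 cells. All 10 tested microglial genes had a fold change below 0 (63.1% of all genes), 7 of them in all 4 groups (9.05% of all genes), with a median of -4.44 (-0.78 with equal weight). The summed microglial level per cell was 1.02 to 123 CPM (median 25.03) in Nkx2-1 cells and 0.716 to 7412 (median 16.3) in the others. Without the 5 cells that carry 5 or more microglial genes, all of them below the limit, the median was -1.04. The complement gene C1qb was carried by 2 Nkx2-1 cells and 6 others, C1qc by none and 6, and Ctss by 1 and 6. Of 8 tested genes of interneurons from the caudal ganglionic eminence none had a fold change above 0, where 36.9% of all genes did. With equal weight 2 were above 0, where 70.3% of all genes were (median -2.41 in the sums and -0.22 with equal weight). Prox1 was carried by 1 and 6 cells, Vip by none and 1, Calb2 by 3 and 5, Cnr1 by 3 and 22, and Cck by 9 and 37. For 11 astrocyte genes the median was -1.46 (-0.17 with equal weight), and 8 of 11 were carried by a higher share of Nkx2-1 cells, with Slc1a3 carried by 4 and 15 cells, Aldoc by 3 and 13 and Glul by 8 and 35. Mut female 5 was the highest Nkx2-1 cell for both Fabp7 (908 CPM) and Slc1a3 (567 CPM). For 5 tested oligodendrocyte genes the median was -2.23 in the sums and 0.06 with equal weight, where 3 of 5 were above 0 (70.3% of all genes). Mbp was carried by 2 and 7 cells and Pdgfra by none and 2. The 2 tested vascular genes had a median of 0.62 (0.15 with equal weight). Of the vascular genes Pecam1 was carried by 10 and 43, Vtn by 1 and 1, and Cldn5 and Rgs5 by none of the Nkx2-1 cells. Erythroid genes had a median of 0.19 (0.20 with equal weight), which ran from -1.03 to 1.11 over the main and alternative settings. WT male 17 was the highest Nkx2-1 cell for both Hba-a2 (4907 CPM) and Hbb-bs (2996 CPM). The haemoglobin gene Hbb-bs was carried by 8 and 35 cells, Hba-a2 by 9 and 44, Hba-a1 by 8 and 40, and Hbb-bt by 4 and 17, and near-identical haemoglobin copies share reads. The part of these other cell types in the other results was not tested.

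**Figure D4:**
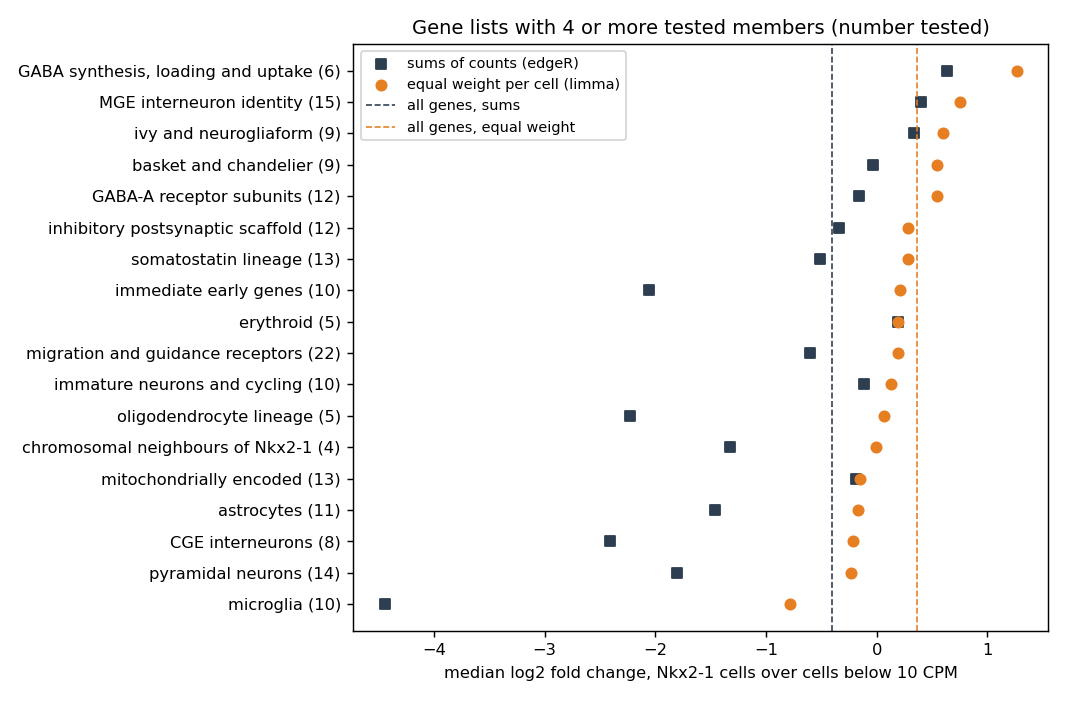
Median log2 fold change (Nkx2-1 cells over cells below 10 CPM) of each gene list with 4 or more tested members, from sums of counts with edgeR (squares) and with equal weight per cell in limma (circles). Dashed lines are the medians of all genes, -0.40 and 0.37, and GABA synthesis lies farthest to the right of both lines.

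Immediate early genes, which neurons switch on when active, were mixed, with a median log2 fold change of -2.06 in the sums and 0.21 with equal weight. Fos was carried by all 11 Nkx2-1 cells and 32 of 51 others (median 335 against 261 CPM), and Egr1 by 5 of 11 and 36 of 51 (4.99 against 159 CPM). In the 29 cells of like gene detection 21 carried Fos and 22 carried Egr1. Junb was carried by 6 and 26 cells and Ier2 by 5 and 20. Jun was higher in the sums of all groups, as the single member of the 10, and carried by 9 and 30 cells. The mitochondrially encoded genes had a median of -0.18 over 13 genes (-0.15 with equal weight). Among them mt-Co3 stood at a median of 1909 against 2715 CPM and mt-Atp6 at 1769 against 2219.9, and mt-Co2 and mt-Cytb were likewise present in all cells.

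Whether the class difference itself depends on genotype was tested as an interaction in the same sums. No gene passed in edgeR (lowest adjusted p 1, with 417 at an unadjusted p under 0.05), and each genotype gave 2 pairs of sums.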

How the data were processed

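Single neurons were sampled by Patch-seq with Nextera XT libraries. The authors deposited expected counts per gene symbol, before and after a quality filter, and a normalized table in TPM. Per the submitters' processing notes they used kallisto and GRCm38, with no version stated. The filter's criterion is not given in the sources used here. Of 76 labelled cells 67 passed it, and 62 without a contamination mark were used. The tables hold 52 further columns before and 44 after the filter that match no label and were not used. Of 35825 symbols 35338 matched GENCODE M21.

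CPM was taken from the counts of each cell. Counts were summed per class and labelled group, rounded, filtered with filterByExpr (minimum count 10) and scaled with TMM. edgeR 4.0.16 (glmQLFit and glmQLFTest, labelled group as block, 3 residual degrees of freedom) gave fold changes, standard errors and p-values over 13024 genes, Nkx2-1 left out. Adjusted p is by Benjamini-Hochberg over all genes. Alternatives were DESeq2 1.42.0, limma 3.58.1, other limits, scalings, filters and cells left out. The test was tried on simulated data, where at a coefficient of variation of 0.1 it found 100% of 4-fold and 16-fold changes with 9 false calls.

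Named genes are up to 12 per direction, of smallest p among those with 1 direction in all groups, a median of at least 10 CPM in the higher class and no cell holding over 50% of its reads, leaving out Gm and Rik names. Members of the MGE identity, progenitor and subpallial lists, and up to 4 of each other list, were named besides, and others after their values were seen. Some genes under this rule are not reported. The 22 lists, the members and the limit of 10 CPM were chosen with earlier results of these data known. Intervals are exact at 95%. Since the libraries hold PCR copies and no molecular identifiers, they cover counting error only. p-values measure only the spread between these sums.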

Additional observations from a re-analysis of the deposited data

Results flagged for a closer look

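A signal appeared in 1 cell outside the comparisons. Mut female 7, which the authors' quality filter left out, had Nkx2-1 at 121.6 CPM, and 1 of the 9 cells left out reached 10 CPM. It held 2389162 counts and 3345 genes at 10 CPM or more. Lhx6 was at 10.4, Gad1 at 24.3 and Mef2c at 339 CPM, against 168 CPM of Lhx6 in the lowest Nkx2-1 cell of the comparison. Reln was at 12.2 and Tac1 at 8.79 CPM.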

How the results depend on the processing

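The count of genes past the threshold was 0 in each direction in edgeR and limma under the alternatives run, and 119 higher and 930 lower with DESeq2. Leaving out each Nkx2-1 cell or each labelled group in turn gave 0 genes in both directions. Among the 24 named genes the direction was kept in 31 alternatives, except that Mef2c was at -0.028 and Zfp354a at -0.13 with the limit at 50 CPM. The median of all genes was -1.47 at that limit. In DESeq2 Wdr60 (5.83, adjusted p 2.74e-05), Zfp354a (4.75, 0.000424) and Ythdf1 (-3.86, 0.0130) passed. At 50 CPM the WT male share of Nkx2-1 cells was 5.26%. Of the 22 list medians 7 kept their sign throughout (GABA synthesis, endothelium, microglia, pyramidal neurons, astrocytes, interneurons of the caudal eminence and the chromosomal neighbours), and the sign of the median of all genes turned with equal weight per cell and without the block. Leaving out groups with fewer than 2 cells of a class removed none, so it gave no further value. For single cells, no paired analysis was possible because the labels carry no replicate numbers, while the sums of the classes were compared as pairs within the 4 labelled groups. Without this block the median of all genes was 0.03 and no gene passed (0 higher, 0 lower). A gene was counted as carried by a cell at 10 CPM or more, which is a chosen limit. With 11 Nkx2-1 cells in 4 groups even 16-fold changes did not pass in data simulated at the common coefficient of variation of 1.13. Genes of smaller spread are not settled by that simulation.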
